A study of Mus musculus with 9 samples.

Results

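The stretch of mouse chromosome 6 from 68 to 84 Mb (mm10 build), 16 Mb long, held 557 of the 116362 accessible regions found in 9 ATAC-seq libraries. ATAC-seq cuts open chromatin with the transposase Tn5, so that a peak marks DNA that the enzyme could reach. It was chosen by its peak share in the TetR line: 0.599% of all peaks lay there in TetR, against 0.334% on average in the other 6 libraries, a ratio of 1.79. The TetR values that follow therefore describe that choice, and no test is given for them. Its members are every peak on chromosome 6 with its midpoint inside those bounds, and peaks of different libraries that overlapped by at least 1 bp were joined into 1 region. The rest of chromosome 6, with 6123 regions, served as the reference.

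All 3 lines are mouse embryonic stem cells of the E14 line in its TOT2N variant, and each gave 3 libraries. The TetR-MYBTA line carries a stably integrated TetR-MYBTA construct, the TetR line carries a stably integrated TetR construct, and the WT line carries neither. TetR is the bacterial tetracycline repressor, a protein that binds tet operator DNA, and the series title speaks of sustained MYB activity. The labels do not say whether a construct line is 1 clone or a pool, or whether libraries of a line came from separate cultures. P-values therefore measure the spread between these libraries, which may be technical. Libraries held 16.4 M to 23.0 M tags and 45136 to 70230 peaks. Of the stem cell genes, Sox2 and Klf4 had a peak within 1 kb of a gene end in all 9 libraries, and Nanog in all 3 TetR libraries and 1 WT library. Pou5f1, Esrrb and Zfp42 had none there in any library, although Pou5f1 and Esrrb had a peak within 10 kb in all 9 and Zfp42 in 6. The 6 stem cell markers together had 2 to 3 such peaks per library in TetR-MYBTA, 3 to 4 in TetR and 3 to 4 in WT. The 6 markers of other cell types (Cdx2, Gata6, Sox17, Pax6, Hnf4a and T) together had 0 to 3 such peaks in TetR-MYBTA, 3 to 4 in TetR and 1 to 2 in WT. Sox17 and Hnf4a were at 0 in every library. The part of these markers in the results was not tested.

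As background, peaks close to the ends of genes often mark promoters, which many cell types keep open, whereas peaks within introns and between genes include enhancers, which are open in fewer cell types. A peak list also depends on how many copies of a stretch each cell carries, since more copies give more tags at each open site. In these lists, the number of DNA copies and the accessibility of each copy cannot be told apart. The stretch begins in the immunoglobulin kappa locus, whose V, J and C segments are joined in B cells. It then runs through a gene-rich block that includes Tcf7l1, a gene-poor middle that holds Ctnna2, Lrrtm4 and the cluster of Reg lectin genes, and a gene-rich distal end with Hk2 and Tet3. Tcf7l1 encodes a transcription factor of the Wnt pathway that holds back pluripotency genes in mouse stem cells. Hk2 encodes a hexokinase, the enzyme of the first step of glycolysis, and Tet3 encodes an enzyme that oxidises methylated cytosine.

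Promoter sequences are shown to set beside each other 3 kinds of promoter in the stretch, those with a peak in every TetR and no TetR-MYBTA library, those open in all 9 libraries and those with no peak. RefSeq promoter windows of the GRCm38.p6 assembly, which has mm10 coordinates, run from 250 bases before to 50 bases after a start listed for a gene. Such a start can lie inside the gene, away from its outer ends. There were 93 such windows for 79 of the 96 protein-coding genes, and the 7 printed were chosen after their values were seen. The sequences run 5′ to 3′ along the strand of the gene. Capitals mark GGGCGG (GC box), CCAAT and TATAAA on either strand, and matches could overlap one another.

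The first 3 windows had a peak in all 3 TetR libraries and in no TetR-MYBTA library. Sh2d6 (chr6:72519987-72520286, minus strand), which encodes a protein with an SH2 domain, had no peak in WT. This window lay inside the gene and overlapped the region chr6:72520052-72520295, 6.53 kb from the nearest gene end. Mrpl53 (chr6:83108858-83109157, plus strand), a protein of the mitochondrial ribosome, had a peak in 1 WT library. Vamp8 (chr6:72390618-72390917, minus strand), a SNARE protein of vesicle fusion, had a peak in 2 WT libraries.
Sh2d6: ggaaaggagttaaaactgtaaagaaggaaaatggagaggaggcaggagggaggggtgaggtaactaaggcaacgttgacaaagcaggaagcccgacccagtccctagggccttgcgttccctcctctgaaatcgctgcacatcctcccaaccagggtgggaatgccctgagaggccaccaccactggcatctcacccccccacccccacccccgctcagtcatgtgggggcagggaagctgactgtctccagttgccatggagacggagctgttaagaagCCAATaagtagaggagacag
Mrpl53: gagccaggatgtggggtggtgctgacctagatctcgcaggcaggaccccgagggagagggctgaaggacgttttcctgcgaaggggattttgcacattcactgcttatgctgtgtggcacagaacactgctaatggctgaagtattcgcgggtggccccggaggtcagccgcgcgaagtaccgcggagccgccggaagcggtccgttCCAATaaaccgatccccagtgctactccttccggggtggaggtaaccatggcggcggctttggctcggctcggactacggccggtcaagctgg
Vamp8: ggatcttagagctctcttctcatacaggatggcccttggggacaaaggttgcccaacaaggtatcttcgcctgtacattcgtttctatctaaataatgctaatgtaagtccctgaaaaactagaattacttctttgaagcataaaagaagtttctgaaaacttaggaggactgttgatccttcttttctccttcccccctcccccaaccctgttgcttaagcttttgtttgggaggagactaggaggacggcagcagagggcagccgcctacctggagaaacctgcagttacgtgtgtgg

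The next 3 windows had a peak in every library. They belong to Gm1070 (chr6:71293515-71293814, plus strand), Hk2 (chr6:82774405-82774704, minus strand) and Tet3 (chr6:83441629-83441928, minus strand). The Tet3 window lay inside the gene and overlapped a region 15.5 kb from the nearest gene end. The last, of Cd8a (chr6:71373177-71373476, plus strand), a coreceptor of T cells, had a peak in none.
Gm1070: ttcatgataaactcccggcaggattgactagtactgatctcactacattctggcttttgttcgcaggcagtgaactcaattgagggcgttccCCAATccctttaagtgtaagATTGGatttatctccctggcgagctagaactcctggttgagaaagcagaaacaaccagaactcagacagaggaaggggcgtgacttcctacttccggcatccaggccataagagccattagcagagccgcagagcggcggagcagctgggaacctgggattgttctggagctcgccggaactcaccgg
Hk2: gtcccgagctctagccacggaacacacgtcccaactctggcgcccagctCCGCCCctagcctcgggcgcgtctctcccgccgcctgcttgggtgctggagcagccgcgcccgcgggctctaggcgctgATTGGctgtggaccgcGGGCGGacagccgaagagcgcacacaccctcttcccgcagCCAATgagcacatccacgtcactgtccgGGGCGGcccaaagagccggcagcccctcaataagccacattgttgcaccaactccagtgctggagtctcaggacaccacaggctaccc
Tet3: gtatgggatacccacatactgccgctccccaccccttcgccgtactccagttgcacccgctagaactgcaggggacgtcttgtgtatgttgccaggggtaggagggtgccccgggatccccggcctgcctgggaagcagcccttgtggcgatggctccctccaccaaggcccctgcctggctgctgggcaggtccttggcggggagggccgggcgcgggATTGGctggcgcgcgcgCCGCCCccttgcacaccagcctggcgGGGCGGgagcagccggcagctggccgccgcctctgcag
Cd8a: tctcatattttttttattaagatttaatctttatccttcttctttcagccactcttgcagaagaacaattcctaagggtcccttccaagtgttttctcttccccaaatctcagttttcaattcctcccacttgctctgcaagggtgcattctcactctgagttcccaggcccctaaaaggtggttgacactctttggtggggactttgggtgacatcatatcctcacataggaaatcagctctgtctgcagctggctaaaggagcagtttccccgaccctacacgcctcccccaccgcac

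Of the 93 windows, 33 held a peak in all 9 libraries, 30 in some and 30 in none. GGGCGG stood in 19 of the 33 windows open in all libraries and in 10 of the 30 with no peak. CCAAT stood in 18 of the 33 and in 7 of the 30, and TATAAA in 0 of the 33 and in 8 of the 30. The median G and C content was 60.3% in the windows open in all libraries and 51.5% in those with none. Over all 93 windows, GGGCGG stood in 50.5%, CCAAT in 33.3% and TATAAA in 12.9%, against 46.2%, 38.2% and 12.6% of all 21263 RefSeq windows of the genome. Of those genome windows, GGGCGG stood in 71.1% of the ones open in all 9 libraries and in 22.6% of the ones with no peak. The same shares were 47.2% and 37.1% for CCAAT, and 5.34% and 19.6% for TATAAA. A match describes the letters alone and is not a binding site.

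Peaks covered 47, 43 and 42 of the 93 windows in the TetR-MYBTA libraries, 54, 54 and 51 in the TetR libraries and 49, 51 and 48 in the WT libraries. The means were 44.0 ± 2.65 in TetR-MYBTA, 53.0 ± 1.73 in TetR cells and 49.3 ± 1.53 in WT (SD, n = 3 each). The Sh2d6 window was the 1 window with a peak in all TetR and no WT libraries, a pattern met by 0.273% of windows over the genome. No window had a peak in all WT and no TetR libraries, against 0.306% over the genome.

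The TetR libraries had about as many peaks in the stretch as both other lines together. There were 192, 181 and 146 peaks in the TetR-MYBTA libraries, 420, 387 and 359 in the TetR libraries and 193, 228 and 203 in the WT libraries. As a share of the chromosome's peaks these were 5.77, 5.76 and 5.91% in TetR-MYBTA, 9.93, 9.79 and 10.1% in TetR and 6.01, 6.43 and 6.06% in WT. All TetR libraries lay above all others, and the 3 TetR-MYBTA libraries lay below the 3 WT libraries. The mean share was 5.81 ± 0.0797% in TetR-MYBTA, 9.94 ± 0.151% in TetR cells and 6.17 ± 0.230% in WT (SD, n = 3 each). TetR stood 3.77 percentage points above WT, a ratio of 1.61, and TetR-MYBTA stood 4.12 percentage points below TetR, a ratio of 0.585. Wilson 95% intervals of single libraries reached 0.794 to 0.991 points on either side and cover counting error only.

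**Figure D1:**
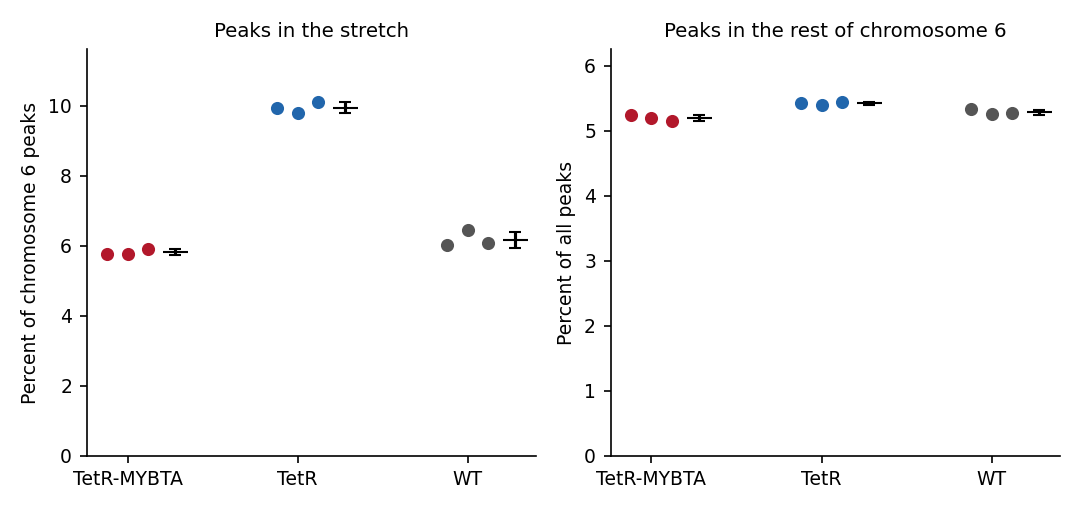
Peaks in the stretch as a percentage of chromosome 6 peaks (left) and peaks in the rest of chromosome 6 as a percentage of all peaks (right), for each library (points) with the mean and SD of each line (bars). The 3 TetR libraries sit between 9.79 and 10.1% in the stretch, above all 6 others, while the rest of the chromosome holds 5.20% of all peaks in TetR-MYBTA, 5.42% in TetR cells and 5.29% in WT.

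The contrast of TetR-MYBTA with WT does not use the TetR libraries, though WT also stood in the contrast that picked the stretch. The share was lower in TetR-MYBTA by 0.355 percentage points, with no overlap between the groups. An exact two-sided permutation test gave p = 0.1, the smallest that 3 against 3 libraries allow, and 0.25 after Benjamini-Hochberg adjustment over the 5 tests of this contrast. Libraries also differed in depth of signal, with 5.48 to 7.57% of tags in peaks in TetR-MYBTA, 9.30 to 9.78% in TetR and 7.79 to 8.09% in WT. With every list held to the 45136 rows of the shortest one, the TetR share stood 3.99 points above WT. In these equal lists TetR-MYBTA less WT was -0.290 points (exact two-sided permutation p = 0.2, adjusted 0.375). That p lies above the smallest possible 0.1, so TetR-MYBTA and WT overlapped there. The rest of chromosome 6 held 5.20 ± 0.0484% of all peaks in TetR-MYBTA, 5.42 ± 0.0187% in TetR cells and 5.29 ± 0.0387% in WT (SD, n = 3 each).

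Extra TetR peaks were spread along the stretch, and the ratio of TetR to WT fell towards its distal end. In 15 of the 16 windows of 1 Mb, all 3 TetR libraries had a higher share of the chromosome's peaks than all 3 WT libraries, and the exception was 83 to 84 Mb. The same pattern held in 14.3% of the 2561 windows of the genome and in 9 of 131 windows in the rest of chromosome 6. The ratio of TetR to WT ran from 1.10 to 4.31 over the stretch with a median of 1.94, and from 0.721 to 1.39 over the rest of the chromosome with a median of 0.970. For TetR-MYBTA over WT the median was 1.04 in the stretch, with a range of 0.696 to 1.51, and 1.02 in the rest of the chromosome, with a range of 0.455 to 2.65. The highest TetR ratio, at 79 to 80 Mb, rested on few peaks, with 2, 1 and 1 in TetR-MYBTA, 7, 9 and 4 in TetR and 1, 2 and 1 in WT. The window with most TetR peaks, 72 to 73 Mb around Tcf7l1, had 24, 28 and 20 peaks in TetR-MYBTA, 77, 65 and 68 in TetR and 35, 44 and 38 in WT.

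**Figure D2:**
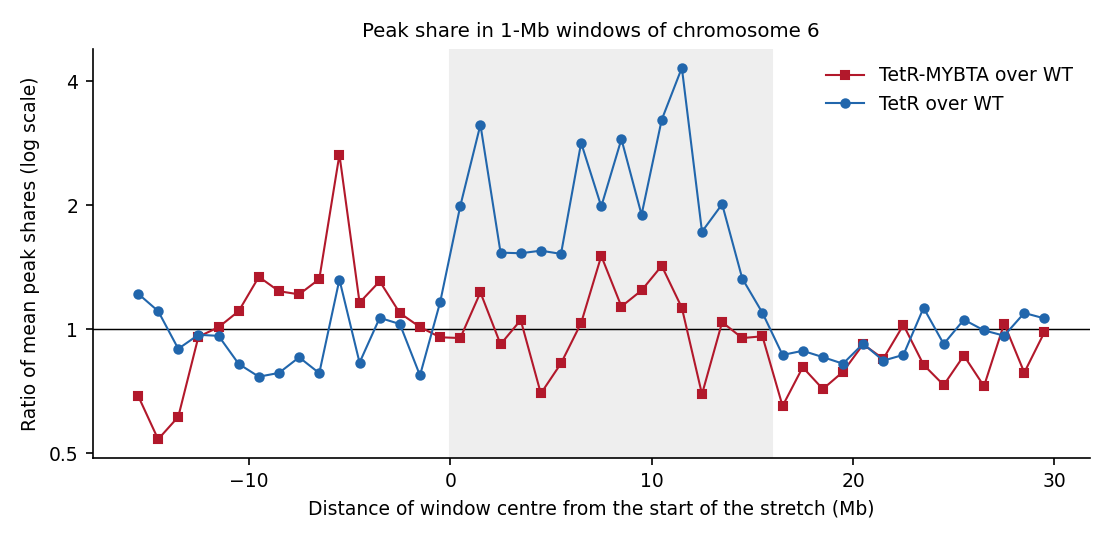
Ratio of mean shares of chromosome 6 peaks (log scale) in 1-Mb windows, for TetR-MYBTA over WT (squares) and TetR over WT (circles), against distance from the start of the stretch (shaded). TetR ratios in the shaded windows run from 1.10 to 4.31, and those of TetR-MYBTA from 0.696 to 1.51.

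The TetR ratio dropped at the proximal edge, and in the last window at the distal edge it was the lowest of the stretch. In the first window inside, at 68 to 69 Mb, the share ratio of TetR to WT was 1.99. Just before the stretch, at 67 to 68 Mb, there were 35, 32 and 26 peaks in TetR-MYBTA, 58, 47 and 44 in TetR and 35, 39 and 36 in WT, a ratio of 1.16. That window is 1 of the 9 outside the stretch in which all TetR libraries had a higher share than all WT libraries, and 4 of its regions had a peak in every TetR library and none in WT. Its ratio lay within the range of 0.721 to 1.39 in the rest of the chromosome, and at 66 to 67 Mb the ratio was 0.773. In the last window inside, at 83 to 84 Mb, there were 39, 30 and 32 peaks in TetR-MYBTA, 53, 48 and 51 in TetR and 37, 44 and 39 in WT, a ratio of 1.10. Just past it, at 84 to 85 Mb, there were 9, 13 and 6 peaks in TetR-MYBTA, 16, 16 and 16 in TetR and 15, 18 and 15 in WT, a ratio of 0.866. The first regions inside, chr6:68019323-68019542 and chr6:68030807-68031049, had peaks in 3 and 3 TetR libraries and in 1 and 3 WT libraries. The last regions inside, chr6:83914202-83914472 and chr6:83923088-83923367, had peaks in 3 and 2 TetR libraries and in 3 and 1 WT libraries. The nearest regions outside were chr6:67982295-67982516, with peaks in 3 TetR libraries and 1 WT library, and chr6:84008435-84008822, with peaks in all 9 libraries.

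Gene density differed along the stretch. From 68 to 74 Mb, with 44 protein-coding genes, there were 78.7 ± 13.3 peaks per library in TetR-MYBTA, 196 ± 13.6 in TetR cells and 103 ± 11.2 in WT (SD, n = 3 each), a share ratio of TetR to WT of 1.65. From 74 to 82 Mb, with 12 genes, there were 37.7 ± 7.51 in TetR-MYBTA, 100 ± 11.5 in TetR cells and 38.0 ± 4.36 in WT, a ratio of 2.27. From 82 to 84 Mb, with 40 genes, there were 56.7 ± 6.43 in TetR-MYBTA, 93.0 ± 5.57 in TetR cells and 67.3 ± 2.52 in WT, a ratio of 1.19. The ratio was thus highest where genes were fewest, as a description of 3 pieces.

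Region by region, the excess was one-sided. Of the 557 regions, 59 (10.6%) had a peak in all 3 TetR libraries and in no WT library, against 2.26% of all regions of the series and 2.20% of the rest of chromosome 6. Only 1 region had the reverse pattern, against 1.37% of all regions. A peak in all TetR and no TetR-MYBTA libraries was found in 81 regions (14.5%), against 4.43% of all regions, and the reverse in 0, against 1.4%. Of the 59 regions, 54 had no WT peak even within 1 kb. In TetR-MYBTA, 43 of the 59 had no peak, 13 had a peak in 1 library and 3 had one in 2 libraries.

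The 43 regions found in all TetR libraries and in none of the other 6 made up 7.72% of the stretch, against 1.34% of all regions. No region was private to the 3 TetR-MYBTA libraries in this way, against 0.587% of all regions, and none to the 3 WT libraries, against 0.571%. Conversely, 5 regions had a peak in every TetR and WT library and in no TetR-MYBTA library, against 1.16% of all regions. No region was missing from TetR alone, against 0.255%, or from WT alone, against 0.151%. A peak in all 9 libraries was found in 96 regions (17.2%), against 22.4% of all regions. Counting regions seen in any number of libraries of 1 line, 13 (2.33%) were seen only in TetR-MYBTA, 219 (39.3%) only in TetR and 25 (4.49%) only in WT. In the rest of chromosome 6 these shares were 9.34% for TetR-MYBTA, 15.6% for TetR and 8.74% for WT.

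Between TetR-MYBTA and WT, 0 regions had a peak in all TetR-MYBTA and no WT libraries, against 1.23% of all regions. The reverse was found in 9 regions (1.62%), against 2.79% of all regions. With lists of equal length the 9 became 2, so that count depended on list length.

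Peaks found in TetR alone sat in the lower and middle part of the lists. The row order of each list served as a stand-in for peak strength, with 100 as the first row. The 43 regions had a median percentile of 33.1 in the TetR lists, with a range of 5.17 to 64.2, while the 96 regions found in all libraries had a median of 86.4 in the TetR lists and 72.7 in the WT lists. The 80 regions found in TetR alone in the rest of chromosome 6 had a median of 27.3. The highest of the 43 lay inside Hk2, at chr6:82727777-82728033, with a mean percentile of 64.2. The next lay 67.5 kb from Eva1a, at chr6:82160459-82160665, with 63.3, and 20.2 kb from Sema4f, at chr6:82891571-82891790, with 62.8. Further ones lay 746 kb from the gene 4931417E11Rik, at chr6:74215380-74215587, with 57.3, and 14.6 kb from Vax2, at chr6:83696476-83696828, with 54.2. Another, at chr6:70713194-70713395, 52.4 kb from Rpia, reached 56.6. It was among the few with another line's peak closer than 1 kb, since 39 of the 43 had none so near.

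Extra TetR peaks lay mostly away from gene ends. Near gene ends (within 1 kb) there were 54.0 ± 2.00 stretch peaks per library in TetR-MYBTA, 77.7 ± 2.08 in TetR cells and 61.0 ± 2.65 in WT (SD, n = 3 each), a ratio of TetR to WT of 1.27. Inside genes there were 46.7 ± 11.0 in TetR-MYBTA, 121 ± 13.6 in TetR cells and 65.7 ± 10.6 in WT, a ratio of 1.84. Between genes there were 72.3 ± 12.9 in TetR-MYBTA, 190 ± 18.6 in TetR cells and 81.3 ± 5.13 in WT, a ratio of 2.34. The TetR libraries lay above all others at each position. In the rest of chromosome 6 the ratios of TetR to WT were 1.07 near gene ends, 1.17 inside genes and 1.09 between genes.

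**Figure D3:**
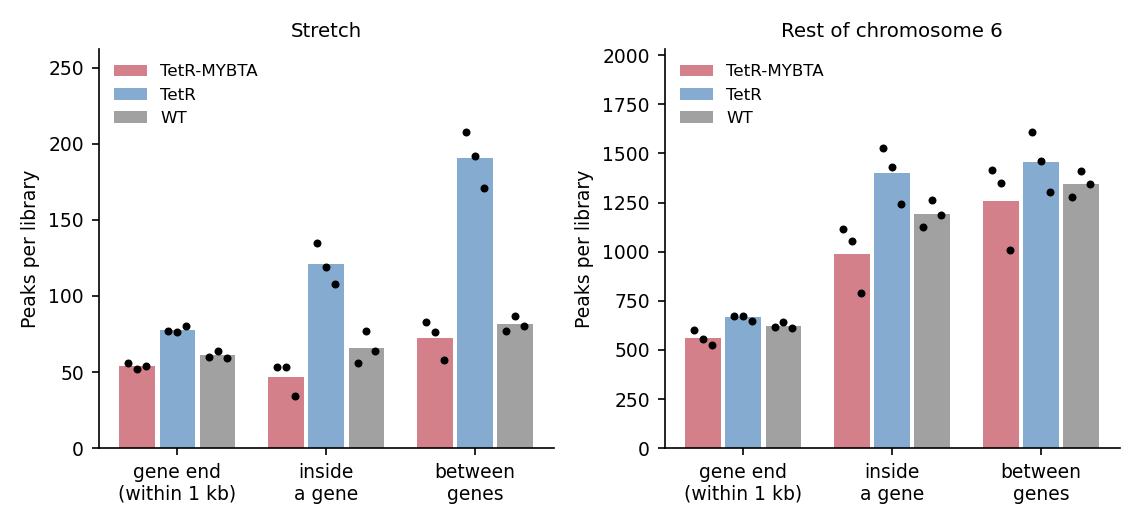
Peaks per library near gene ends, inside genes and between genes, in the stretch (left) and in the rest of chromosome 6 (right), with bars for the mean of each line and points for its 3 libraries. Between genes of the stretch, TetR averaged 190 peaks and WT 81.3, while in the rest of the chromosome the ratio was 1.09.

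As shares of stretch peaks, those near gene ends made up 31.6 ± 4.65% in TetR-MYBTA, 20.1 ± 2.01% in TetR cells and 29.4 ± 1.54% in WT (SD, n = 3 each). Those inside genes made up 26.7 ± 3.09% in TetR-MYBTA, 31.0 ± 1.05% in TetR cells and 31.4 ± 2.38% in WT. Those between genes made up 41.6 ± 1.78% in TetR-MYBTA, 48.9 ± 1.12% in TetR cells and 39.2 ± 0.897% in WT. TetR-MYBTA differed from WT by 2.22 points near gene ends, by -4.71 points inside genes and by 2.49 points between genes. Exact two-sided permutation tests gave p = 0.6, 0.2 and 0.2, and adjusted values of 0.6, 0.25 and 0.25. The difference near gene ends reversed to -0.459 points without TetR-MYBTA replicate 3, which had the shortest list. Of the 59 regions in all TetR and no WT libraries, 39 (66.1%) lay between genes, 16 inside a gene and 4 near a gene end. Over all 557 regions 280 (50.3%) lay between genes, 178 inside and 99 near an end. In the rest of chromosome 6, 44.4% of regions in all TetR and no WT libraries lay between genes. The 39 lay a median of 109 kb from the nearest gene.

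The share of peaks near gene ends was higher in the stretch than in the rest of chromosome 6 in all 9 libraries, by 7.42 points on average and by 10.6 points without the 3 TetR libraries. The share inside genes was lower in all 9, with a mean difference of -7.79 points. The share between genes differed by 0.372 points, and by -3.23 points without the 3 TetR libraries, an alternative added after the data were seen. These differences are given as a description with no test, since all libraries share the same layout of genes and the TetR libraries chose the stretch.

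The first piece of the stretch lies in the kappa light-chain locus, of which only segments within the stretch were counted. That part runs from 68016742 to 70726754 on chromosome 6, with 151 annotated segments over 2.71 Mb. They comprise 91 V segments, 54 V pseudogenes, 5 J segments and 1 C segment. Peaks there numbered 24, 22 and 13 in TetR-MYBTA, 51, 51 and 48 in TetR and 16, 23 and 18 in WT. All TetR libraries lay above all others, and TetR-MYBTA overlapped WT. As ratios of mean peak counts and not of shares, TetR stood at 2.63 times WT and TetR-MYBTA at 1.04 times. On all of chromosome 6, TetR had 1.16 times the peaks of WT. This part of the locus held 71 regions. A peak in all TetR and no WT libraries was found in 12 of them, against 2.26% of all regions, and 9 were open in every library, against 22.4%. An annotated segment was overlapped by 1 region.

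Counted by gene, with 1 kb on either side, 79 of the 96 protein-coding genes had a peak in at least 1 library. In 18 genes (18.8%) every TetR library had more peaks than every WT library, against 4.03% of all genes and 5.34% of the 1030 genes in the rest of chromosome 6. None had the reverse, against 1.32%. No gene had more peaks in every TetR-MYBTA than in every WT library, against 0.863% of all genes. The reverse was found in 5 genes (Rpia, Eif2ak3, Tex37, Kcmf1 and Ccdc142), against 6.15% of all genes. The numbers were equal in all 9 libraries for 21 genes, of which 20 had exactly 1 peak. Long genes have room for more peaks, and differences in peak number that stand beside each other for genes or lists are not corrected for length. The median over all 96 genes includes 17 genes with no peak in any library. The counts for gene lists below stand beside this 18.8% of all stretch genes, and no list was tested.

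Among chromatin and DNA modifying genes, all 6 members in the stretch had peaks, 2 had more in every TetR than in every WT library, and the median difference of TetR from WT was 0.667 peaks, against 0.167 over all 96 genes. Tet3 had 3, 2 and 2 peaks in TetR-MYBTA, 5, 4 and 5 in TetR and 3, 3 and 3 in WT. Smyd1, a histone methyltransferase of heart and skeletal muscle, had 1, 1 and 2 in TetR-MYBTA, 2, 4 and 2 in TetR and 1, 1 and 0 in WT. In both genes the TetR libraries lay above WT, and TetR-MYBTA overlapped WT. Kdm3a, a histone H3 lysine demethylase, overlapped between lines with 2, 4 and 3 in TetR-MYBTA, 4, 3 and 3 in TetR and 3, 3 and 2 in WT. Pcgf1, a Polycomb subunit, had 1 peak in each library.

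Transcription factors of development showed 3 such genes among 6 in the stretch, of which 5 had a peak, with a median difference of 1 peak. Tcf7l1 had 8, 7 and 5 peaks in TetR-MYBTA, 21, 18 and 18 in TetR and 8, 12 and 9 in WT. Its 3 regions in all TetR and no WT libraries all lay inside the gene. Atoh8, a basic helix-loop-helix factor, had 0, 1 and 0 peaks in TetR-MYBTA, 3, 3 and 3 in TetR and 0, 2 and 0 in WT. Vax2, a homeobox factor of the ventral eye, had 1, 0 and 1 in TetR-MYBTA, 2, 3 and 2 in TetR and 1, 1 and 1 in WT. In these genes no TetR library overlapped the other lines. Lbx2 had no peak in any library, and Foxi3, a forkhead factor, had 1 peak in every library except WT replicate 3, which had 2.

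Genes of neuronal adhesion and signalling had 4 such members among 8, all 8 with peaks, and a median difference of 1.33 peaks. These 4 were the longest genes of the list, from 103 kb for Reep1 to 1098 kb for Ctnna2. The part of gene length was not tested. Ctnna2, the alpha-catenin of neurons, had 9, 11 and 9 peaks in TetR-MYBTA, 25, 21 and 20 in TetR and 6, 14 and 8 in WT, the largest difference of the stretch. Lrrtm4, a synaptic adhesion protein, had 4, 5 and 2 in TetR-MYBTA, 11, 10 and 9 in TetR and 5, 6 and 6 in WT. Reep1, a shaping protein of the endoplasmic reticulum, had 1, 0 and 0 in TetR-MYBTA, 3, 4 and 4 in TetR and 1, 2 and 1 in WT. Tacr1, the receptor of substance P, had no peak in any TetR-MYBTA or WT library and 3, 1 and 2 in TetR. In each the TetR counts lay above both other lines. St3gal5, which makes the ganglioside GM3, had 1 peak in each library. Lrrtm1 lies inside Ctnna2, so its peaks count for both.

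Among mitochondrial and metabolic enzymes, all 17 members in the stretch had peaks, 1 had more in every TetR than in every WT library, 4 had equal numbers in all 9 libraries, and the median difference was 0.333 peaks. Hk2 had 6, 7 and 4 peaks in TetR-MYBTA, 8, 8 and 8 in TetR and 5, 5 and 7 in WT. Rpia, the ribose-5-phosphate isomerase, had 2, 2 and 1 in TetR-MYBTA, 4, 4 and 4 in TetR and 4, 3 and 5 in WT, so that it was low in TetR-MYBTA and overlapped between TetR and WT. Dguok, Htra2, Mrpl19 and Nagk had 1 peak in each library.

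Genes of the secretory pathway and stress had 2 such members among 7, all with peaks, and a median difference of 0.333 peaks. Eif2ak3, which encodes the stress kinase PERK, had 1, 1 and 1 peaks in TetR-MYBTA, 5, 6 and 4 in TetR and 2, 2 and 2 in WT. Its counts did not overlap between any pair of lines. Vamp5, a SNARE protein, had none in TetR-MYBTA or WT and 1, 1 and 2 in TetR. Tgoln1 and Rnf103 had 1 peak in each library.

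Several genes of other tissues had no peak at all. None of the 4 immune surface genes (Cd8a, Cd8b1, Cd207 and Clec4f) and none of the 6 Reg lectin genes had a peak in any library. Of the 2 muscle genes in the stretch, Smyd1 had more peaks in TetR and Actg2, a smooth muscle actin, had none, a median difference of 1 peak. Fabp1, the liver fatty acid binding protein, and Sftpb, a lung surfactant protein, also had none.

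Outside these lists, Kcmf1, a ubiquitin ligase, had 0, 2 and 0 peaks in TetR-MYBTA, 9, 7 and 6 in TetR and 3, 4 and 4 in WT, and the 3 lines did not overlap. Gcfc2, which takes part in splicing, had 2, 2 and 1 in TetR-MYBTA, 4, 3 and 3 in TetR and 1, 1 and 1 in WT, and 2 of its regions were found in all TetR and no WT libraries. Usp39, Sh2d6, Dok1 and Loxl3 each had 1 such region near or inside them, and Dok1 and Loxl3 share theirs, chr6:83033968-83034201. Tex37 also had 1, with 0, 0 and 0 peaks in TetR-MYBTA, 3, 3 and 1 in TetR and 1, 1 and 1 in WT, so that TetR and WT overlapped. Slc4a5, a bicarbonate cotransporter, went the other way in its mean, although TetR and WT overlapped. It had 4, 3 and 1 in TetR-MYBTA, 3, 3 and 2 in TetR and 5, 5 and 3 in WT. It holds the 1 region with a peak in all WT and no TetR libraries, chr6:83234372-83234644. The next lowest difference of TetR from WT, -0.333 peaks, was shared by several genes, among them Krcc1 and Atp6v1b1, a proton pump subunit of kidney and inner ear.

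**Figure D4:**
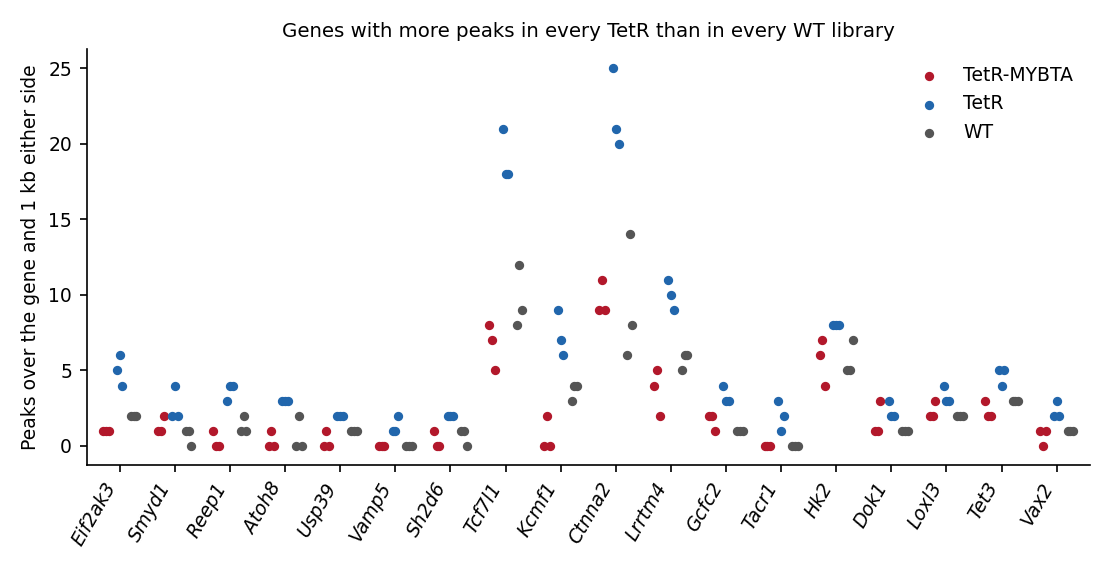
Peaks over each gene and 1 kb on either side in each library (points), for the 18 genes in which every TetR library had more peaks than every WT library, in order along the chromosome. Ctnna2 has 25, 21 and 20 peaks in TetR and 6, 14 and 8 in WT, and Tcf7l1 has 21, 18 and 18 in TetR and 8, 12 and 9 in WT.

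Regions open in every library allow a comparison within the same sites. The 1473 such regions of chromosome 6, 96 of them in the stretch, were ranked by row order within each library. The 96 had mean percentiles of 41.6, 40.7 and 40.0 in TetR-MYBTA, 62.4, 62.4 and 63.5 in TetR and 47.1, 47.8 and 46.2 in WT. The lines did not overlap, and the means were 40.8 ± 0.790 in TetR-MYBTA, 62.8 ± 0.622 in TetR cells and 47.0 ± 0.770 in WT (SD, n = 3 each). In the rest of the chromosome the means were 50.7 in TetR-MYBTA, 49.1 in TetR cells and 50.2 in WT. TetR-MYBTA lay 6.26 points below WT (exact two-sided permutation p = 0.1, adjusted 0.25). That difference was -9.44 points near gene ends, -6.90 inside genes and -1.95 between genes. It varied by window in the stretch, with 9.13 points at 77 to 78 Mb and -17.0 at 73 to 74 Mb. Windows elsewhere on the chromosome also differed in both directions, with 32.6 points at 19 to 20 Mb and -24.0 at 116 to 117 Mb. TetR lay 15.7 points above WT, in the contrast that picked the stretch.

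In 54 of the 96 (56.3%) all TetR libraries ranked above all WT libraries, against 17.8% of the 1473, and in 5 the reverse held, against 19.4%. All WT libraries ranked above all TetR-MYBTA libraries in 27 (28.1%), against 20.4%, and the reverse held in 4, against 18.1%. The mean difference of TetR from WT was 11.7 points for 40 regions near gene ends, 12.8 for 23 inside genes and 22.7 for 33 between genes. By window, the TetR mean lay above the WT mean in 14 of the 15 windows of the stretch that held such regions, and in 51 of 121 windows in the rest of the chromosome that held at least 3. The exception was 83 to 84 Mb, where the mean over 21 regions differed by -5.35 points. Just before the stretch, at 67 to 68 Mb, the mean over 19 regions differed by 1.75 points, and TetR overlapped WT. At 68 to 69 Mb it differed by 18.1 points over 4 regions.

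**Figure D5:**
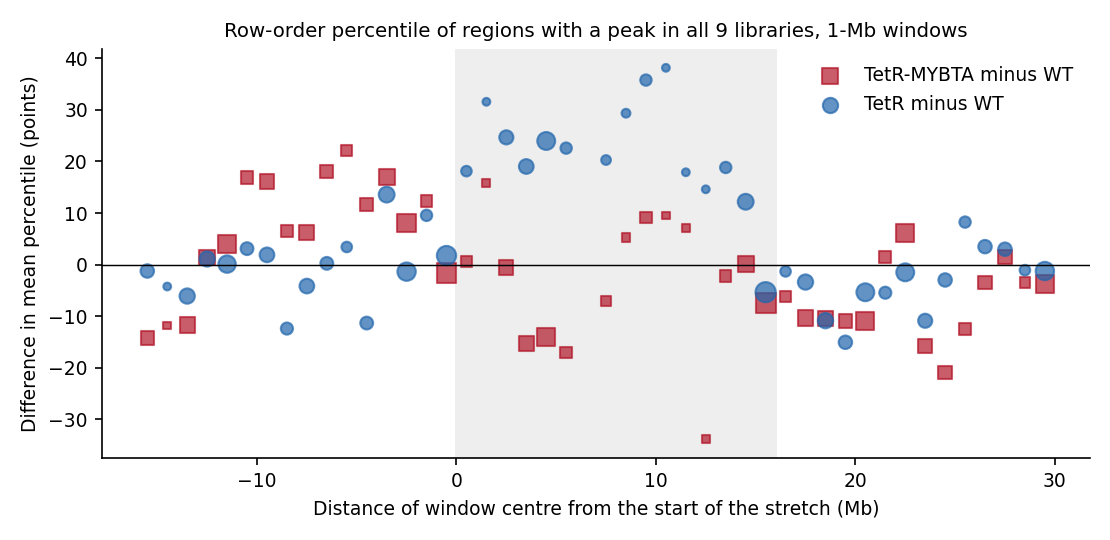
Difference in mean row-order percentile per 1-Mb window, over the regions open in every library, for TetR-MYBTA minus WT (squares) and TetR minus WT (circles), against distance from the start of the stretch (shaded); larger symbols hold more regions. TetR lies above WT in 14 of the 15 shaded windows, and the last one, with 21 regions, lies at -5.35 points.

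Single regions, chosen after their values were seen, showed the range. At the start of Gm1070 (chr6:71293583-71293846, overlapping the promoter window printed above) the percentile was 43.0, 42.2 and 49.8 in TetR-MYBTA, 86.3, 82.3 and 83.0 in TetR and 18.4, 20.5 and 42.9 in WT. Inside Ctnna2 (chr6:77628853-77629106) it was 26.6, 14.7 and 51.6 in TetR-MYBTA, 63.6, 51.5 and 53.5 in TetR and 0.272, 5.36 and 7.67 in WT. In both, TetR lay above the other lines. Inside Capg, an actin capping protein, chr6:72552655-72553091 averaged 10.4 in TetR-MYBTA, 59.4 in TetR cells and 10.1 in WT. By contrast, the region over the Hk2 promoter (chr6:82774407-82774700) averaged 81.0 in TetR-MYBTA, 86.7 in TetR cells and 85.7 in WT, and single TetR libraries overlapped both other lines. At the distal end, inside Tet3, chr6:83421769-83422150 averaged 27.8 in TetR-MYBTA, 20.3 in TetR cells and 55.0 in WT. Inside Zfp638, a zinc finger protein, chr6:83893649-83893963 averaged 24.4 in TetR-MYBTA, 8.08 in TetR cells and 51.4 in WT.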

How the data were processed

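Each library has its own deposited peak list. Per the file headers, HOMER called it without a control or pooling (FDR 0.001). Kept peaks had at least 11 or 12 tags and stood 4-fold above the local 10000 bp. The threshold was 12 tags in TetR-MYBTA replicate 3 and WT replicates 2 and 3. It was 11 tags in the other libraries, among them all 3 of TetR. The part of this difference in the calls was not tested. The submitters' processing notes list the mm10 build and HOMER 4.11, deepTools 3.5.5, Picard, Bowtie2, Trim Galore 0.6.10 and FastQC. No source used here states a Tn5 shift of reads or a blacklist. The authors' deposited score is a constant 1. Peaks were therefore read as present or absent, and row order stood in for strength (Spearman correlation with HOMER's peak number within a chromosome at least 0.992). That correlation sets one order against another, and row order could not be checked against tag counts.

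Peaks and genes were processed in Python 3.11.15 with pandas 2.3.3 and scipy 1.17.1. Genes and promoter windows came from RefSeq GRCm38.p6, whose gene table gives no exons or strand. Shares are of chromosome 6 peaks. Calls count regions with a peak in all 3 libraries of 1 line and none of another. The scripts were tested on simulated data. Settings varied were list length (equal lists, upper 50%), denominators, gene ends within 2.5 kb, 500-kb windows, a replicate block and leaving out each library. Named genes were those holding a region in all TetR and no WT libraries (up to 15), the reverse (up to 5), the 8 largest and 3 smallest differences in mean peaks, and list members. The members, gene lists and rules were chosen with earlier results of these data known.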

Additional observations from a re-analysis of the deposited data

How the results depend on the processing

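The TetR excess in stretch share kept its direction under every alternative run. The stretch share of TetR less WT was 4.02 points in the upper 50% of each list, and 0.251 points of all peaks and 0.264 points of autosomal peaks, which are other denominators (3.69 to 3.90 leaving out 1 library). TetR-MYBTA less TetR was -4.28 points with equally long lists, -4.73 in the upper 50%, -0.278 of all peaks and -0.291 of autosomal peaks (-4.20 to -4.05 leaving out 1 library). TetR-MYBTA less WT stayed below 0 (-0.434 to -0.223 leaving out 1 library). It was -0.290 points with equally long lists and -0.712 in the upper 50%. In both settings the exact permutation p was 0.2 and the groups overlapped.

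Composition was less stable. The share of stretch peaks near gene ends, TetR-MYBTA less WT, reversed to -1.31 points with equally long lists and to -2.17 in the upper 50% (-0.459 to 3.67 leaving out 1 library). The share between genes, stretch less the rest of chromosome 6, reversed to -0.416 points with equal lists, -2.67 in the upper 50% and -3.23 without the 3 TetR libraries, which was chosen after seeing the data. It ran from -0.663 to 0.967 leaving out 1 library and was below 0 without TetR replicate 1 (-0.488), 2 (-0.663) or 3 (-0.434). The cause was not tested.

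Counts of regions moved with the rule. With a peak in at least 2 of 3 libraries, there were 133 regions with TetR against WT, 164 with TetR against TetR-MYBTA, 6 with WT against TetR, 32 with WT against TetR-MYBTA and 106 in TetR alone. Leaving out 1 library gave 58 to 97, 80 to 124, 1 to 3, 9 to 19 and 44 to 74 regions in that order, and the highest TetR values (97, 124 and 74) came without TetR replicate 3. In the upper 50%, TetR against WT gave 44 regions instead of 59, TetR against TetR-MYBTA 51 and WT against TetR 0. With equal lists, TetR against WT gave 47, WT against TetR 0 and WT against TetR-MYBTA 2. In 500-kb windows, TetR lay above WT in 26. The percentile of regions open in all libraries, TetR less WT, was 16.8 points with equal lists and 13.0 ranked among all chromosome 6 peaks (14.7 to 16.2 leaving out 1 library).

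Correlations of same-numbered libraries over windows ran from -0.0625 to 0.145. No correlation of differently numbered libraries stands beside these, so they do not settle whether replicate numbers pair the libraries. With the replicate number as a block, differences were the same (TetR-MYBTA less WT share -0.355 points) and the smallest exact sign-flip p was 0.25. A peak list gives no tag counts per peak, so a weak site just under the threshold of 11 or 12 tags reads as absent.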
